A study of Mus musculus with 21 samples.

Results

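The genes described here are 39 genes of DNA replication and S phase, listed by name and matched by gene symbol to 2 sets of mouse Affymetrix arrays from a study of the forkhead transcription factor FoxQ1. Of the 39, 38 were among the 18193 genes of the table for NMuMG cells and 37 among the 12393 genes of the table for NM18 cells. Chaf1a was not analysed in either table, nor Gins2 in NM18 cells. Where a gene had several probe sets, the one with the highest mean stood for it.

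NMuMG is a mouse mammary gland epithelial line, and NM18 is the other cultured line of the study. NM18 cells were in 3 groups of 3 arrays, FoxQ1 siRNA with TGF-b1, ns-siRNA with TGF-b1 and ns-siRNA without TGF-b1. They received 25 nM siRNA, and 8 h later the TGF-b1 groups received 5 ng/ml of transforming growth factor beta 1 (TGF-b1) for 40 h, so that all RNA was taken at 48 h. The ns-siRNA is called control siRNA below, and no group had FoxQ1 siRNA without TGF-b1. NMuMG cells were in 4 groups of 3 arrays, newly made RNA with TGF-b1, newly made RNA without it, total RNA with TGF-b1 and total RNA without it. All of these cells spent 2 h in 200 µM 4-thiouridine (4sU), and the TGF-b1 groups had 5 ng/ml TGF-b1 in the same medium. 4sU enters RNA as it is made, and the newly made RNA is the 4sU-labelled fraction enriched on mercury. Values are log2 as deposited, a scale inferred from their range, and levels are not compared between the tables.

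DNA replication starts when Cdc6 and Cdt1 load the MCM helicase, a ring of Mcm2 to Mcm7, onto origins in G1. In S phase the helicase is activated, the polymerases copy both strands around the Pcna clamp, and ribonucleotide reductase and its partner enzymes supply deoxynucleotides. Many of these genes are transcribed at the G1 to S boundary by E2F factors, and TGF-b1 is known to arrest epithelial cells in G1.

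Promoter windows of 250 bases before to 50 after the RefSeq start (GRCm38.p6) were held for 33 of the 39 genes. An E2F-type motif (TTTGGCGC, TTTCCCGC, TTTCGCGC or TTTGCCGC, on either strand) was found in 12 of the 33, or 36.4%. A gene was counted if any of its windows held the motif. The shares were 4.07% of the 9887 genes of the NM18 table with a window and 2.60% of all 27025 genes with a window. The 12 were Cdc6, Cdt1, Dnmt1, Lig1, Mcm3, Mcm5, Mcm6, Mcm7, Pola1, Pold1, Rfc3 and Uhrf1. In neighbouring gene lists the E2F-type share was 33.3% of other replication genes, 35% of G1/S regulators and 8% of mitosis genes with a window. A high share was thus not particular to the 33 genes. CCAAT was found in 54.5% of the 33 and in 42.3% of the NM18 table's genes, and TTTGAA in 9.09% and 15.4%. For other replication genes, G1/S regulators and mitosis genes, the shares were 53.3%, 55% and 80% for CCAAT. For TTTGAA they were 20%, 35% and 72%. The stretches below are the 160 bases before the start of 4 genes that changed in NM18 cells and hold an E2F-type motif there, chosen after their values were seen. They lie at chr8:75109349-75109508 (plus strand), chr1:128359706-128359865 (minus strand), chrX:93632156-93632315 (minus strand) and chr11:98907991-98908150 (plus strand), and capitals mark E2F-type motifs and CCAAT on either strand. In Mcm5, and once in Mcm6, a pair of E2F-type motifs on opposite strands overlap.
Mcm5: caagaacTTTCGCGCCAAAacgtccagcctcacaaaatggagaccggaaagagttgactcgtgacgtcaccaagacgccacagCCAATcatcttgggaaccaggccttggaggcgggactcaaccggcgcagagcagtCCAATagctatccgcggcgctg
Mcm6: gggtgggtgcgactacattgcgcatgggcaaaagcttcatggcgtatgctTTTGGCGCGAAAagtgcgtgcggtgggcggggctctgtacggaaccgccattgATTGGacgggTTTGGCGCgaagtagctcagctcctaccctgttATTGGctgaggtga
Pola1: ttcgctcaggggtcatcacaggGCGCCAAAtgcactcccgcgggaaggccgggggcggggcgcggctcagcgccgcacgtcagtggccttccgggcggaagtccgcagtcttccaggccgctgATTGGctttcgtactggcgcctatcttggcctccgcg
Cdc6: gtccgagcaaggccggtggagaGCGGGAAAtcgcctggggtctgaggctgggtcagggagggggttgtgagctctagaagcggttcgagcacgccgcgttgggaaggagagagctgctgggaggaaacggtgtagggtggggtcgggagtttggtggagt

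The targeted gene was read first. Foxq1 had values of 7.57, 8.09 and 7.97 with FoxQ1 siRNA and TGF-b1, 9.08, 9.04 and 9.33 with control siRNA and TGF-b1, and 7.91, 8.49 and 8.38 in untreated control siRNA cells. Foxq1 was thus lower on every FoxQ1 siRNA array than on any control siRNA array with TGF-b1, by 1.27 ± 0.16 on the log2 scale (SE, limma adjusted p = 2.9e-04), and its FoxQ1 siRNA and untreated arrays overlapped. Smad7 and Skil, early targets of TGF-b signalling, were higher with TGF-b1 at 40 h by 0.94 ± 0.19 and 1.00 ± 0.18 (limma adjusted p = 0.0026 and 0.0012). A note on array 1 of FoxQ1 siRNA and on array 1 of untreated cells describes TGF-b1 for both siRNAs, whereas the untreated array's title and treatment label name none, and titles were followed. Keratin genes Krt8 and Krt18 lay above nearly all genes of both tables, while Esrp1 was low in both, at percentiles of 7.503 in NMuMG and 10.1 in NM18 cells. Fibroblast markers averaged 5.95 to 6.04 with FoxQ1 siRNA and TGF-b1, 6.03 to 6.07 with control siRNA and TGF-b1 and 5.84 to 5.92 untreated, over 8 genes, below the NM18 table's median gene level of 7.79.

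After 40 h of TGF-b1, nearly the whole replication set fell in NM18 cells. Of 37 genes, 34 were lower with TGF-b1 than in untreated cells under control siRNA and 0 were higher (limma, adjusted p under 0.05), where 17.5% of all genes were called lower. The median log2 change was -0.81 over the 37 genes and 0.00 over all 12393. On 32 of the 37 the groups did not overlap, as on 41.8% of all genes. Arrays do not tell fewer cells with these transcripts from less RNA per cell.

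The licensing factors fell together. Cdc6, the ATPase that brings the helicase to origins, had 8.34, 8.19 and 7.78 with TGF-b1, against 9.37, 9.07 and 8.64 untreated. Cdt1, its partner in loading, fell by 0.88 ± 0.10, and Gmnn, which encodes the Cdt1 inhibitor geminin, by 1.11 ± 0.10. All 6 MCM genes fell, Mcm3 by 0.99 ± 0.14, Mcm5 by 0.88 ± 0.14 and Mcm7 by 0.82 ± 0.08, with smaller falls of 0.43 ± 0.09 in Mcm2 and 0.46 ± 0.10 in Mcm6. Among the helicase activators Mcm10 fell by 0.81 ± 0.09 and Gins1, a subunit of the GINS complex, by 1.09 ± 0.08.

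All 5 polymerase and primase genes fell. Prim1, the catalytic primase subunit, had 9.28, 9.34 and 8.93 with TGF-b1, against 10.51, 10.37 and 10.27 untreated. Those arrays did not overlap, and the fall was 1.20 ± 0.11 (limma adjusted p = 1.5e-05). Pcna, the sliding clamp and the brightest of the genes in this table, fell by 0.49 ± 0.08, whereas the clamp loader subunits Rfc4 and Rfc5 fell by 1.29 ± 0.09 and 1.11 ± 0.08. Lig1, which joins Okazaki fragments, had 9.12, 9.01 and 9.01 with TGF-b1, against 10.52, 10.36 and 10.45 untreated, a 2.64-fold fall.

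The largest fall at 40 h was in nucleotide supply. Tk1, the S-phase thymidine kinase, had 9.42, 9.14 and 9.20 with TGF-b1, against 10.96, 10.66 and 10.65 untreated. Every treated array lay below every untreated one, a 2.84-fold fall (log2 change -1.51 ± 0.11, limma adjusted p = 4.5e-06). Rrm2, the small ribonucleotide reductase subunit, fell by 0.84 ± 0.21 and Dut, the dUTPase, by 0.94 ± 0.11. Uhrf1, which recruits the maintenance methyltransferase Dnmt1, fell by 1.17 ± 0.14, Dnmt1 by 0.70 ± 0.10, the chromatin assembly subunit Chaf1b by 0.81 ± 0.10 and the histone mRNA binder Slbp by 0.77 ± 0.09. Both repair genes were lower, Brca1 by 0.78 ± 0.09 and Ung, a uracil glycosylase, by 0.73 ± 0.11.

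The 3 genes that did not pass the test at 40 h were Tyms, Ccne1 and E2f1. Ccne1, a cyclin E gene, had 8.36, 7.998 and 8.01 with TGF-b1, against 8.18, 7.91 and 7.54 untreated (log2 change 0.24 ± 0.15, limma adjusted p = 0.27). E2f1, the founding E2F factor, had 7.80, 7.99 and 7.84, against 7.94, 8.08 and 7.93 (-0.11 ± 0.08, limma adjusted p = 0.41). The groups overlapped for both. Tyms, thymidylate synthase, was the dimmest of the genes in both tables, and changed by -0.23 ± 0.15 (limma adjusted p = 0.30; with the replicate number as a block 0.038). Ccne2, the other cyclin E gene, passed narrowly at -0.52 ± 0.18 (limma adjusted p = 0.048) with overlapping groups, and lost its call under 12 of 16 alternatives. Without the arrays numbered 1, 29 genes were called lower, and Mcm2, Mcm6, Fen1, Rrm1 and Ccne2 were not. The share of all genes called in that fit is not given here. Fen1 lost its call under 6 of 16 alternatives and Rrm1 under 3, against 1 for Mcm2 and Mcm6.

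**Figure D1:**
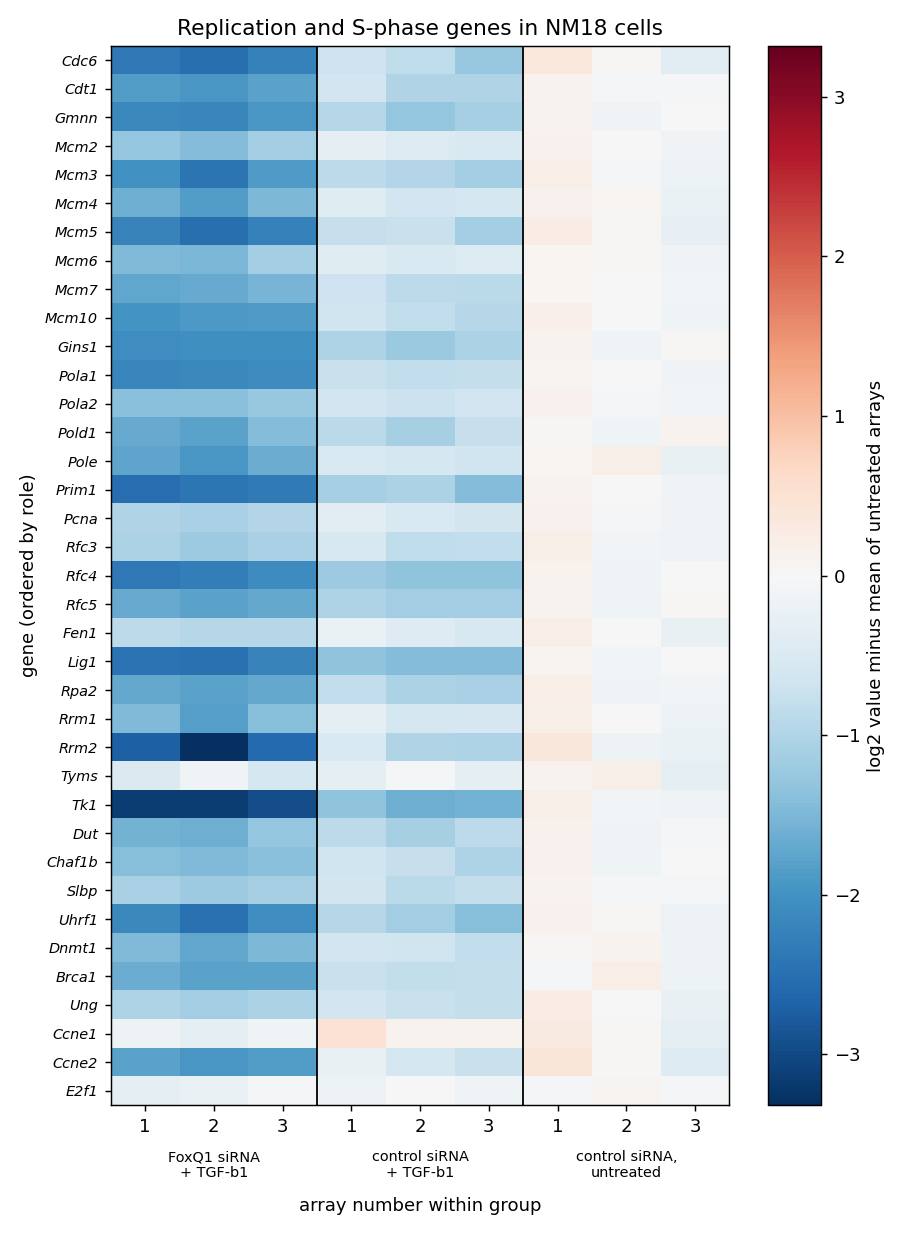
Log2 value of 37 replication genes (rows, by role) on the 9 NM18 arrays (columns, 3 a group), minus the mean of the 3 untreated arrays. For 32 genes all FoxQ1 siRNA arrays lie below all control siRNA arrays with TGF-b1, which lie below all untreated arrays. Fen1, Tyms, Ccne1, Ccne2 and E2f1 do not follow that order. The share of all genes in that order is not given here.

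FoxQ1 siRNA gave a further fall across most of the set. Among cells with TGF-b1, 34 of the 37 genes were lower with FoxQ1 siRNA than with control siRNA and 0 were higher (limma, adjusted p under 0.05), where 8.28% of all genes were called lower. The median log2 change was -0.94 over the 37 and 0.00 over all genes, and the groups did not overlap on 35 of the 37 and on 34.7% of all genes. This comparison shares its control siRNA arrays with the 40 h comparison, on opposite sides, so the 2 sets of changes are not independent. Epithelial markers averaged 9.46 to 9.59 per FoxQ1 siRNA array, 9.16 to 9.20 with control siRNA and TGF-b1 and 9.40 to 9.46 untreated, over 10 genes. These genes did not move as one. At 40 h Krt19, Cdh1 and Ocln changed by -3.11 ± 0.24, -1.04 ± 0.09 and -0.53 ± 0.09, and Cldn4 by 1.85 ± 0.20, and the others were not called. With FoxQ1 siRNA Cdh1, Ocln, Epcam and Cldn4 were called higher, by 1.05 ± 0.09, 0.66 ± 0.09, 0.66 ± 0.13 and 0.70 ± 0.20, and the others were not called. The 3' minus 5' difference of the Actb control probe sets, a measure of how far transcripts reach towards their 5' end, was 0.15 to 0.39 with FoxQ1 siRNA, 0.10 to 0.14 with control siRNA and TGF-b1 and 0.17 to 0.21 untreated, so control siRNA arrays with TGF-b1 did not overlap either other group. That of Gapdh was -0.16 to -0.07 with FoxQ1 siRNA, -0.20 to -0.12 with control siRNA and TGF-b1 and -0.15 to -0.10 untreated, which overlapped. The part of the epithelial markers and of these differences in either comparison was not tested.

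Rrm2 moved most. It had 8.67, 8.05 and 8.80 with FoxQ1 siRNA, against 10.86, 10.38 and 10.35 with control siRNA, both with TGF-b1. The groups did not overlap, and the fall was 4.06-fold (log2 change -2.02 ± 0.21, limma adjusted p = 7.0e-05). Its large partner Rrm1 fell by 1.09 ± 0.13, and Tk1 fell to 7.60, 7.60 and 7.82 with FoxQ1 siRNA, against 9.42, 9.14 and 9.20 with control siRNA, a 2.99-fold fall. Dut fell less, by 0.55 ± 0.11.

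Cdc6 had 6.65, 6.53 and 6.79 with FoxQ1 siRNA, against 8.34, 8.19 and 7.78 with control siRNA, a 2.72-fold fall with no overlap. Mcm5 had 7.65, 7.36 and 7.62, against 9.09, 9.12 and 8.73, a 2.71-fold fall. The other 5 MCM genes fell by 0.83 ± 0.08 in Mcm7 up to 1.11 ± 0.12 in Mcm4 and 1.11 ± 0.14 in Mcm3. Cdt1 and Gmnn fell by 0.98 ± 0.10 and 0.97 ± 0.10, Mcm10 by 1.12 ± 0.09 and Gins1 by 0.94 ± 0.08.

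Pola1, the catalytic subunit of polymerase alpha, had 6.47, 6.50 and 6.56 with FoxQ1 siRNA, against 7.90, 7.82 and 7.85 with control siRNA. No arrays overlapped, and the fall was 2.55-fold (log2 change -1.35 ± 0.07, limma adjusted p = 3.8e-07). Prim1 fell by 1.22 ± 0.11 and Pole, the leading-strand polymerase, by 1.19 ± 0.11, against 0.68 ± 0.08 in Pola2 and 0.71 ± 0.11 in Pold1. Falls in the clamp and its loader were 0.53 ± 0.08 in Pcna, 0.39 ± 0.11 in Rfc3, 0.96 ± 0.09 in Rfc4 and 0.60 ± 0.08 in Rfc5. Lig1 fell by 0.99 ± 0.08, Rpa2, a subunit of the single-strand binding complex, by 0.73 ± 0.10, and the flap nuclease Fen1 by 0.52 ± 0.11.

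Uhrf1 fell by 1.06 ± 0.14, Brca1 by 0.95 ± 0.09 and Dnmt1 by 0.86 ± 0.10, and Chaf1b, Slbp and Ung by 0.61 ± 0.10, 0.37 ± 0.09 and 0.35 ± 0.11. Ccne2 had 7.27, 7.10 and 7.18 with FoxQ1 siRNA, against 8.80, 8.47 and 8.32 with control siRNA, a 2.54-fold fall without overlap. Ccne1 had 7.72, 7.55 and 7.73, against 8.36, 7.998 and 8.01, which do not overlap either, yet it missed the threshold (-0.46 ± 0.15, limma adjusted p = 0.052; with the replicate number as a block 0.011). E2f1 and Tyms changed by -0.10 ± 0.08 and -0.18 ± 0.15 (limma adjusted p = 0.51 and 0.48). Without the arrays numbered 1, 29 genes were called lower, and Dut, Pold1, Rfc3, Slbp and Ung were not. The share of all genes called in that fit is not given here. Ung lost its call under 8 of 15 alternatives and Rfc3 under 5 of 16, against 1 of 16 for Dut, Pold1 and Slbp.

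**Figure D2:**
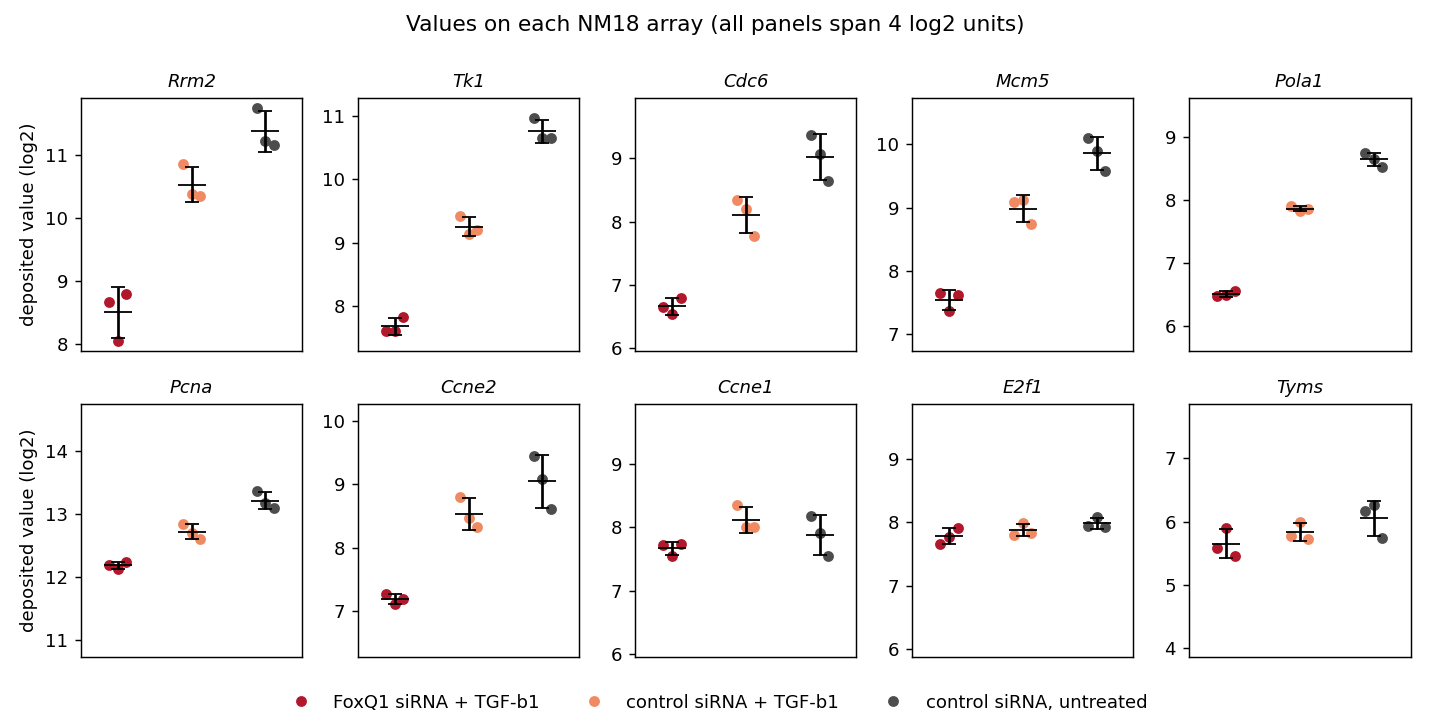
Deposited log2 values of 10 genes on each NM18 array (points), with the mean and SD of 3 arrays (bars). Rrm2, Tk1, Cdc6, Mcm5, Pola1 and Pcna step down without overlap; Ccne1, E2f1 and Tyms do not.

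Set against untreated control siRNA cells, FoxQ1 siRNA with TGF-b1 gave the widest gaps. Of the 37 genes, 35 were lower and 0 higher (limma, adjusted p under 0.05), where 18.6% of all genes were called lower, and the median log2 change was -1.71. Tk1 was 8.48-fold and Rrm2 7.27-fold lower, against 2.03-fold for Pcna. Ccne1 and E2f1 did not pass (limma adjusted p = 0.32 and 0.081), and Tyms passed narrowly at -0.41 ± 0.15 (limma adjusted p = 0.046; 0.36 without the arrays numbered 1).

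Whether the step with FoxQ1 siRNA differed in size from the step with TGF-b1 was tested as a contrast chosen after the data were seen. Of the 37 genes, 3 had a larger fall with FoxQ1 siRNA and 1 a smaller one (limma, adjusted p under 0.05), where 7.64% of all genes were called lower and 10.9% higher. Pola1 differed by -0.57 ± 0.12, Pole by -0.60 ± 0.19 and Rrm2 by -1.18 ± 0.37, and Rfc5 by 0.51 ± 0.13. None of the 4 kept its call under every alternative. With the replicate number as a block, 11 genes were called, 8 with larger and 3 with smaller falls, where 11.7% of all genes were called lower and 16.1% higher in that fit, and without the arrays numbered 1, 0 were.

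**Figure D3:**
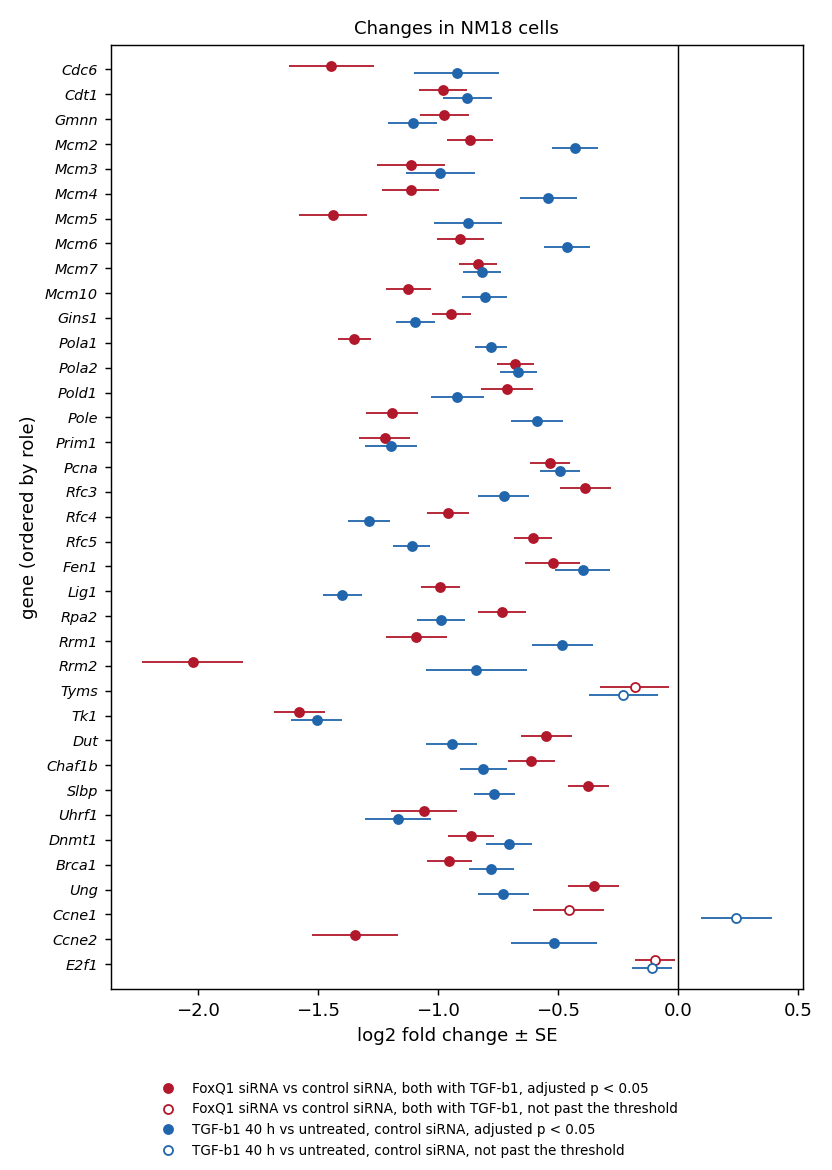
Log2 fold change ± SE of 37 genes in NM18 cells for FoxQ1 siRNA against control siRNA and for TGF-b1 against none, with open points for genes past no threshold. Both comparisons use the control siRNA arrays with TGF-b1; Rrm2 lies furthest left at -2.02, and Ccne1 at 40 h is the point right of 0.

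Neighbouring gene lists gave the following counts of calls (limma, adjusted p under 0.05). Of all genes, 8.28% were called lower with FoxQ1 siRNA and 17.5% with TGF-b1 at 40 h. Of 48 other replication genes, 31 fell and 1 rose with FoxQ1 siRNA, and 37 fell and 0 rose with TGF-b1 at 40 h. Of 29 mitosis genes, 29 fell in both comparisons, with median log2 changes of -1.66 for FoxQ1 siRNA and -1.07 for TGF-b1. With FoxQ1 siRNA, Ccnb2, a mitotic cyclin, fell by 2.33 ± 0.09, Ube2c by 2.22 ± 0.09, while Birc5 fell by 2.18. Ccna2, the S-phase and G2 cyclin, fell by 2.17 ± 0.07. Among 24 G1/S regulators, 9 fell and 1 rose with FoxQ1 siRNA, and 10 fell and 2 rose with TGF-b1. Cdk4, the kinase partner of D cyclins, had 8.92, 9.32 and 9.29 with FoxQ1 siRNA, against 10.83, 10.74 and 10.78 with control siRNA, and changed by -0.05 ± 0.09 at 40 h. Its step with FoxQ1 siRNA differed from that with TGF-b1 by -1.56 ± 0.16, and that of Ccnd3, a D cyclin, by -1.64 ± 0.12 (limma adjusted p = 2.0e-04 and 4.4e-05).

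Median changes were below 0 both for genes with and for genes without an E2F-type motif. The median log2 change with FoxQ1 siRNA was -0.99 over the 12 genes with the motif, in a range of -1.44 to -0.39, and -0.64 over 20 without it, in a range of -2.02 to -0.10. At 40 h the medians were -0.88 and -0.77, in ranges of -1.40 to -0.46 and -1.51 to 0.24. The ranges overlap in each case.

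In NMuMG cells, 2 h of TGF-b1 gave few calls in the set. Most changes lay below 0, 32 of 38 in newly made RNA and 36 of 38 in total RNA, against 9629 and 10402 of all 18193 genes. Control array 3 of total RNA had a median of 10.65 over the 38 genes, against 10.45 and 10.40 on control arrays 1 and 2. Under at least 1 alternative, Pcna, Mcm5, Mcm7 and Rrm1 in total RNA changed by up to 0.08, 0.08, 0.03 and 0.08. Also above 0 under an alternative were Ccne2, Cdt1, Dnmt1, Fen1, Gins1, Gins2, Lig1, Mcm2, Mcm3, Mcm6, Pola1, Pole, Prim1, Slbp and Uhrf1. Tk1, Mcm10 and the other genes below 0 stayed there under every alternative. In newly made RNA, Brca1, Ccne1, Ccne2, E2f1, Gins1, Gmnn, Mcm2, Pola1, Slbp and Tyms went above 0 under at least 1 alternative. The other genes below 0 in newly made RNA stayed below. The counts of 32 and 36 therefore depend on the arrays and settings used. In newly made RNA 1 of 38 genes, Tk1, was lower with TGF-b1 and 0 were higher (limma, adjusted p under 0.05), where 2.79% of all genes were called lower. The median log2 change was -0.12 over the 38 and -0.01 over all genes. Between same-numbered arrays, 22 of the 38 were lower with TGF-b1 in all 3 pairs, as were 24.6% of all genes, and 5 were higher in all 3, as were 19.8%. Among the 22 were Mcm3, Mcm5, Mcm7, Pola1, Pola2, Pcna, Rfc4, Rfc5, Lig1, Dut and Uhrf1, none of which passed the test. This count of pairs was chosen after the data were seen. Tk1 had 8.99, 9.16 and 9.13 with TGF-b1, against 9.66, 9.61 and 9.80 without it, which did not overlap (-0.60 ± 0.14, limma adjusted p = 0.018). This call was lost without array 1 or 3 of TGF-b1 or array 3 of control newly made RNA (limma adjusted p = 0.064, 0.052 and 0.067).

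Gins2, a GINS subunit, had 7.43, 7.71 and 7.64 with TGF-b1, against 7.97, 8.05 and 8.03 (-0.42 ± 0.14, limma adjusted p = 0.093). Ung had 8.72, 9.25 and 8.93, against 9.17, 9.80 and 9.26 (-0.45 ± 0.16, limma adjusted p = 0.14). The arrays did not overlap for Gins2 and did for Ung. With the replicate number as a block within each kind of RNA, 4 genes were called lower, Tk1, Gins2, Ung and Chaf1b, where 6.59% of all genes were, the last 3 with limma adjusted p of 0.015, 0.0058 and 0.029. With 1 block over both kinds, 3 were called lower, without Chaf1b, where 4.22% of all genes were.

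In total RNA 0 of 38 genes passed in either direction (limma), where 2.48% of all genes did. At an unadjusted p under 0.05 there were 2 of the 38, or 5.26%, and 9.63% of all genes. In all 3 same-numbered pairs 9 of the 38 were lower with TGF-b1, as were 21.1% of all genes. Tk1 had 10.25, 10.37 and 10.40 with TGF-b1, against 10.47, 10.53 and 11.07 without it (-0.35 ± 0.14, limma adjusted p = 0.37). Mcm10 had 9.28, 9.26 and 9.29, against 9.57, 9.55 and 9.64 (-0.30 ± 0.13, limma adjusted p = 0.40). Rfc3 had 7.22, 7.08 and 7.09, against 7.49, 7.42 and 7.46 (-0.33 ± 0.16, limma adjusted p = 0.58). The arrays of these 3 genes did not overlap. The effects in newly made and total RNA differed for 0 of 38 genes, where 0.0660% of all genes were called (limma). At an unadjusted p under 0.05 the counts were 0 of 38 and 2.92% of all genes. Smad7 rose by 0.99 ± 0.11 in newly made and 1.25 ± 0.11 in total RNA of the same cells.

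**Figure D4:**
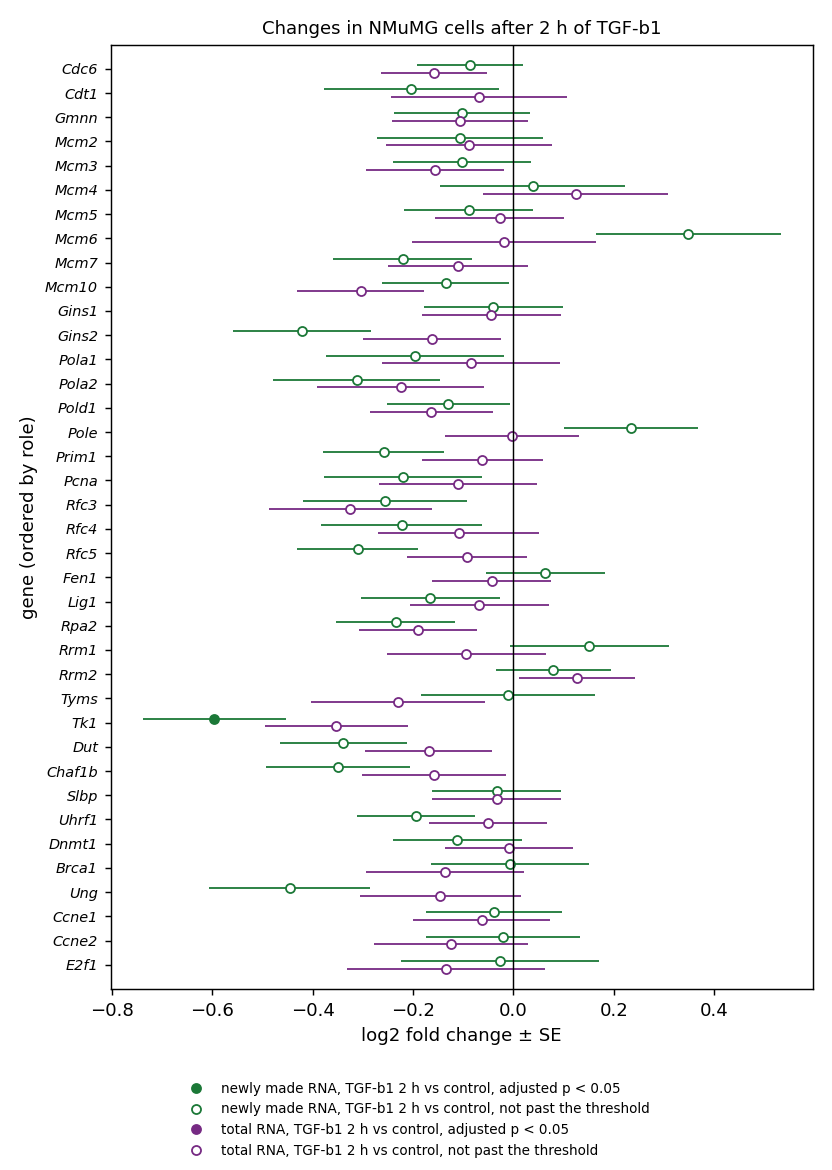
Log2 fold change ± SE of 38 genes in NMuMG cells after 2 h of TGF-b1 against none, in newly made and in total RNA, with open points for genes past no threshold. Tk1 in newly made RNA, at -0.60, is the single filled point.

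Newly made and total RNA differed widely. In cells with TGF-b1, 22 of 38 genes were lower and 7 higher in newly made than in total RNA (limma, adjusted p under 0.05), where 26.8% of all genes were called lower and 18.3% higher. In control cells 23 were lower and 5 higher, where 26.8% and 17.2% of all genes were. The median log2 difference in control cells was -0.57 over the 38 genes and -0.08 over all genes, and 5 of 6 MCM genes and all 5 polymerase and primase genes were lower.

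Ccne2 in control cells had 10.62, 10.80 and 10.68 in newly made RNA, against 9.12, 8.98 and 8.72 in total RNA (1.76 ± 0.15, limma adjusted p = 1.0e-07). Slbp had 11.63, 11.61 and 11.65, against 10.62, 10.56 and 10.91, and Cdc6 had 10.08, 10.19 and 10.18, against 9.81, 9.67 and 9.87. All of these were higher in newly made RNA with no overlap. Lig1 had 9.25, 9.44 and 9.59 in newly made RNA, against 10.995, 10.91 and 11.31, and Pcna 11.36, 11.36 and 11.78, against 12.76, 12.56 and 13.23, both lower without overlap.

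The 3' minus 5' difference of the Gapdh control probe sets was 2.67 to 3.72 on control newly made arrays and 1.63 to 1.94 on control total arrays. Probe sets of 1 gene also disagreed. Those of Mcm7 differed between newly made and total RNA by -0.87 to -2.16, and those of Rfc3 by 0.29 and -0.90. Above the table's median level, 20 genes had several probe sets, with a median gap of 0.66 between them in this comparison, against 0.08 for FoxQ1 siRNA over 16 genes in NM18 cells. The part of transcript length in the newly made to total differences was not tested.

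**Figure D5:**
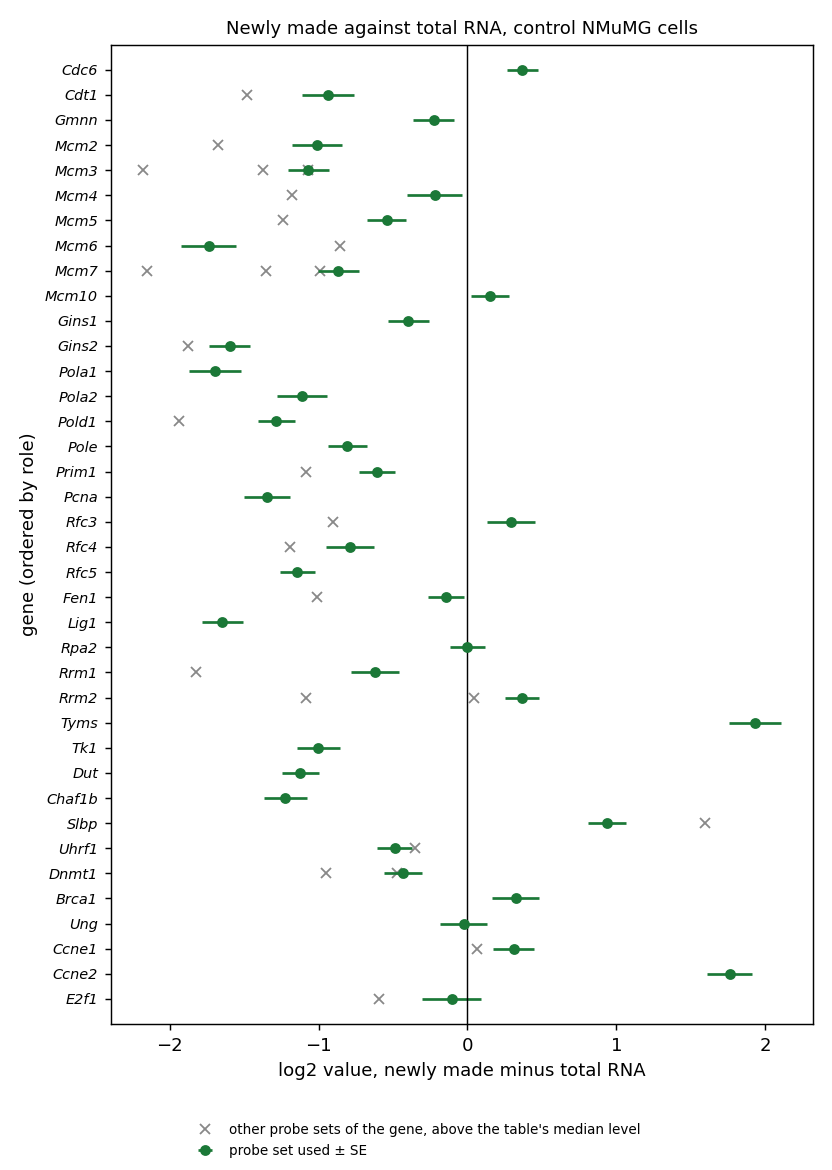
Log2 difference between newly made and total RNA in control NMuMG cells for 38 genes (points, ± SE), with the other probe sets of a gene above the table's median level (crosses). Tyms and Ccne2 lie furthest right, at 1.93 and 1.76, and crosses of Rfc3 and Rrm2 fall on the other side of 0 from the point. Tyms averaged 6.55, below the table's median level of 6.67, and its difference went down to 0.61 under the alternatives.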

How the data were processed

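Gene expression of 21 arrays was used, 12 of NMuMG and 9 of NM18 cells, grouped by title and treatment label, with 3 arrays a group. The deposited values are log2 expression per probe set. The scale was inferred from ranges of 2.34 to 14.8 and 4.57 to 14.6, and the authors' background correction and normalization are not given in the sources used here. Per the submitters' processing notes affy 1.18.2 was used, with no role named. Of 45101 NMuMG and 22690 NM18 probe sets, 34945 and 20380 had 1 gene symbol in the platform annotation and were kept, and 932 and 691 had several. Array numbers limit the precision, and scanner files were not used here. No 2 arrays held identical values (0 pairs).

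Each table was fitted with limma 3.58.1 in R 4.3.3 (lmFit, eBayes) over all its groups, two-sided, with Benjamini-Hochberg adjustment over all genes, and calls were made below an adjusted p of 0.05. Log2 changes are given ± SE. The fit was tested on simulated data. Whether arrays of a group came from separate cultures is not stated for each array, so p-values measure the spread between these arrays.

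Deviations from the group means of same-numbered arrays correlated at 0.16 to 0.61 in all 9 NM18 pairs. In all 6 NMuMG pairs within a kind of RNA they correlated at 0.12 to 0.73. The numbers were therefore taken to pair arrays there. The main fit did not use this pairing, which entered only the replicate block and the counts of same-numbered pairs. Where no block is named, SE, p-values and calls are without it. Across kinds of RNA the correlations were -0.18 to 0.32.

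The genes and lists were chosen with earlier results of these data known. All 39 could be named. Array values are given for called genes the results turn on and, with fewer than 3 calls, for the 3 with the smallest p. Other list genes were named if called, at most 6 a comparison by smallest p. Foxq1, Smad7 and Skil were named as checks, and 1 further check gene was not analysed here. Alternatives were other scalings, probe set means, a level filter, only the groups compared, the replicate block and leaving out each array.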

Additional observations from a re-analysis of the deposited data

How the results depend on the processing

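The counts of called genes moved by over 1.5 times in 2 comparisons. For TGF-b1 at 2 h in newly made RNA, 1 gene was called, 3 with the replicate block, 4 with the replicate block within each kind of RNA, 0 to 3 with an array left out and 0 without the arrays numbered 1. The call depended on arrays 1 and 3 of TGF-b1 and array 3 of control newly made RNA, without each of which it was 0. It was 3 without array 1 of control newly made RNA and 2 without array 3 of control total RNA. For the difference between the FoxQ1 siRNA and TGF-b1 steps, chosen after seeing the data, 4 were called, 11 with the replicate block, 1 to 6 with an array left out (1 without array 1 of FoxQ1 siRNA or array 2 or 3 of control siRNA with TGF-b1) and 0 without the arrays numbered 1, an alternative also added after seeing the data. The cause was not tested.

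Over 16 alternatives each, called genes numbered 29 to 35 for FoxQ1 siRNA, 29 to 35 for TGF-b1 at 40 h and 32 to 36 for FoxQ1 siRNA with TGF-b1 against untreated cells. Newly made against total RNA gave 25 to 32 with TGF-b1 and 27 to 31 in control cells. TGF-b1 in total RNA and its difference from newly made RNA gave 0 throughout. The shares of all genes called under these alternatives are not given here. Of 34 calls each, 29 held under every alternative for FoxQ1 siRNA (not Dut, Pold1, Rfc3, Slbp and Ung) and 29 for 40 h (not Ccne2, Fen1, Mcm2, Mcm6 and Rrm1). The replicate block changed no count in NM18 by over 1.5 times apart from the difference of steps.

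Among genes called as reported or under the alternative, directions turned only in newly made against total RNA. Genes that were not called also changed sign, as Ccne2 did in total RNA at 2 h, between -0.26 and 0.05. In cells with TGF-b1 and in control cells, Fen1 was 0.36 and 0.36 with quantile normalization, and with the mean of all probe sets Pola2 was 0.34 and 0.23, Rfc3 -0.28 and -0.30 and Rrm2 -0.31 and -0.23. The block within each kind of RNA could not be fitted for newly made against total RNA. For both differences of effects, the groups compared are all groups of the table, so that alternative adds no value.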
